A study of Mus musculus with 8 samples.

Results

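The 10 genes described here, Atf4, Atf5, Ddit3, Ddit4, Trib3, Chac1, Sesn2, Asns, Nupr1 and Gdf15, encode the transcription factor ATF4 and genes known to be induced with it when cells are under stress. They were taken by symbol from the 55471 genes of the count table, where Ddit3 had a second entry without counts, and all 10 were among the 13818 genes that passed the filter on low counts. The cells were SV-LECs, a mouse line of lymphatic endothelial cells immortalized with SV40 and derived from the adventitia of the mesentery. One group of 4 libraries came from untreated cells, and the other 4 came from cells kept with TGFβ1 at 10 ng/ml during 72 h. Because the study's methods call the samples technical replicates of a single line, each error and p-value covers the spread between libraries and not that between independent cultures.

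ATF4 is the main effector of the integrated stress response. Kinases that sense endoplasmic reticulum (ER) stress, lack of amino acids, lack of heme or viral RNA phosphorylate the initiation factor eIF2, which lowers translation in general but allows the Atf4 message to be translated. ATF4 then activates genes for amino acid supply, such as Asns, and regulators of survival, such as Ddit3 and Trib3. Its protein is thus controlled mainly at translation, and RNA levels of its target genes are commonly read as its output. Several of the target genes also have other inducers, and Ddit4, Sesn2 and Gdf15 are known targets of p53 as well.

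Together with its partners of the C/EBP family, ATF4 binds a composite element, CARE, which was searched for on both strands as the letters TGATGNAA. Promoters of all 10 genes, windows of 300 bases around each RefSeq start site, were taken from RefSeq on GRCm38.p6. A match was found in 4 of the 10 genes, whereas 4.51% of the 27025 genes in the same table had one, and 2.74% of those that were also tested. The 4 windows of 30 bases are shown on the strand of the gene because they allow the element to be compared between genes that fell, and capitals mark the match. The match in Chac1 (chr2:119351038-119351067, forward strand) begins 193 bases before the start site and that in Nupr1 (chr7:126625562-126625591, reverse strand) 110 bases before it. The match in Asns (chr6:7693214-7693243, reverse strand) begins 23 bases before the start site. In Trib3 (chr2:152344028-152344057, reverse strand) the match begins 15 bases after the start site.
Chac1: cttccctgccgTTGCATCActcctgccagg
Nupr1: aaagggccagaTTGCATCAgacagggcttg
Asns: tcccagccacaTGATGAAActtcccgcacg
Trib3: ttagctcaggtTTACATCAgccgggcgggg
Chac1 and Nupr1 held the exact form TGATGCAA on the opposite strand, which 1.03% of all genes in the table held. Asns and Trib3 differed from it in the letter marked N. Every exact match is also counted among the CARE matches. The other 6 genes had no match to the element in these windows. None of the 10 genes had the palindrome TGACGTCA, the cyclic AMP response element, which 2.03% of all genes in the table held.

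The libraries held between 18952504 and 26386941 counts, and the response to TGFβ1 was visible in all 7 tested genes of a list of TGFβ response genes, from Skil with a log2 fold change of 0.63 to Ltbp2 with 2.63. Of 12 markers of endothelial or lymphatic endothelial cells, 5 were tested, of which 3 were higher and 1 was lower. Pdpn (342 ± 19.5 CPM untreated, SD, n = 4), Flt4, Kdr and Eng were expressed, and Tek was low. Prox1, Lyve1, Cdh5, Pecam1 and Tie1, which define lymphatic or blood endothelium, had at most 2, 3, 2, 5 and 0 counts in a library. Of 12 markers of other cells, 7 were tested, with 5 higher and 2 lower. Those of stromal cells were split: the fibroblast genes Dcn and Pdgfra fell, from 312 ± 11.7 to 83.0 ± 6.48 CPM and from 160 ± 10.5 to 57.8 ± 3.91 CPM (SD, n = 4), whereas the pericyte genes Pdgfrb and Cspg4 had log2 fold changes of 0.63 and 0.85 and rose. The macrophage marker Cd68 rose from 6.96 ± 0.863 to 15.9 ± 0.857 CPM (SD, n = 4), while the leukocyte marker Ptprc had at most 1 count, and the keratin genes Krt8 and Krt18 rose to 1.11 ± 0.246 and 1.24 ± 0.432 CPM. The summed level of the 12 markers, most of which is Dcn and Pdgfra, went from between 516 and 560 CPM to between 240.2 and 270.5 CPM, against a median log2 fold change of 0.85 over the 7 tested. Of 13 messages encoded by mitochondrial DNA, 7 were tested and 7 were higher, and their summed level went from between 2528 and 3567 CPM in untreated to between 5254 and 6849 CPM in TGFβ1-treated libraries. The others, mt-Co2, mt-Co3, mt-Atp6, mt-Atp8, mt-Nd3 and mt-Nd4l, had 0 counts in every library. The sum is therefore not the level of all mitochondrial messages. In such bulk samples, fewer cells of a type and less RNA per cell cannot be told apart. The part of these shifts in the results was not tested.

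Most of the ATF4 stress response genes fell after TGFβ1. With an FDR (false discovery rate) threshold of 0.05 in the edgeR test over all genes, 7 of the 10 genes were lower, 2 were higher and 1 did not pass. In the background of all genes tested, 75.6% passed, 38% lower and 37.6% higher. Thus 9 of the 10 genes passed, and 7 of the 10 were lower where 38% of all genes were. Their median log2 fold change was -0.63, against -0.0064 for all genes tested. Trib3, Chac1 and Asns fell by more than 1 on the log2 scale, as did 6.56% of all genes. In 7 of the 10 genes the libraries of both groups did not overlap, against 69.8% of all genes. The summed level of the 10 genes was between 1445 and 1658 CPM in untreated and between 871 and 964 CPM in TGFβ1-treated libraries.

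**Figure D1:**
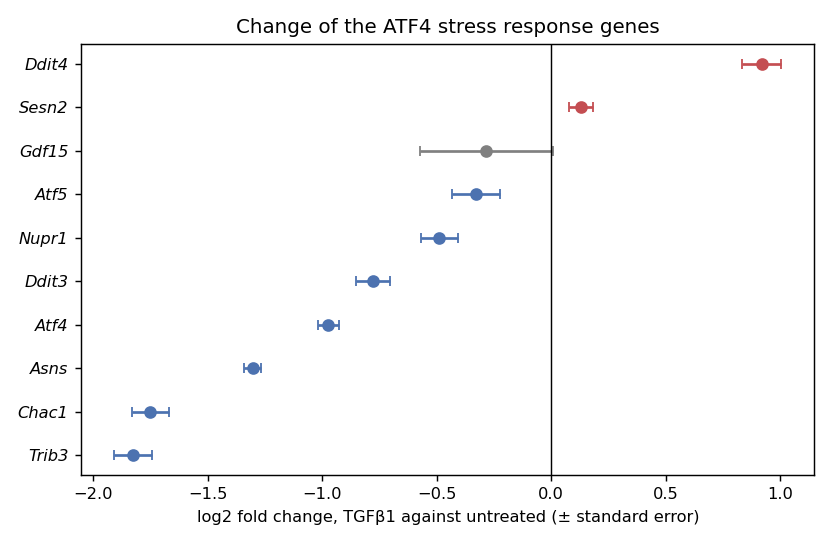
Log2 fold change of each of the 10 genes between 4 TGFβ1-treated and 4 untreated libraries, with its standard error as a bar. Blue points were lower and red points higher at an FDR under 0.05, and the grey point (Gdf15) did not pass. Trib3 lies furthest to the left at -1.83 and Ddit4 furthest to the right at 0.92.

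The transcription factors of the group were lower. Atf4 (ENSMUSG00000042406, GRCm38 chr15:80255184-80257541) had 497, 474, 501 and 462 CPM in untreated libraries 1 to 4, and 229.7, 249.4, 248.3 and 257.7 CPM in TGFβ1-treated libraries 1 to 4. CPM gives counts relative to the normalized size of each library. Each treated library lay far below each untreated one, and Atf4 fell by 0.97 on the log2 scale (standard error 0.0467, FDR = 2.88e-95), that is 1.96-fold. Ddit3 (ENSMUSG00000025408, chr10:127290774-127296288) encodes CHOP, a partner of C/EBP factors linked to cell death under prolonged stress. It had 96.5, 103.7, 97.9 and 83.1 CPM untreated and 52.4, 59.8, 59.5 and 50.8 CPM after TGFβ1. The groups did not overlap, and Ddit3 fell by 0.78 on the log2 scale (standard error 0.0743, FDR = 5.50e-25). Its exons overlap those of Mars, a tRNA synthetase gene on the opposite strand, by 68 bases, which is less than a read of 75 bases, and 1.81% of its stretches of read length also occur in the Ddit3 entry without counts.

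Atf5, a relative of Atf4 whose message is controlled in the same way and which has been linked to mitochondrial stress, changed less. Atf5 (ENSMUSG00000038539, chr7:44812256-44816658) had 107.3, 98.0, 86.2 and 75.3 CPM untreated and 65.8, 64.7, 76.6 and 84.8 CPM after TGFβ1. Treated libraries 3 and 4 lay above the lowest untreated library, so the groups overlapped. Atf5 fell by 0.33 on the log2 scale (standard error 0.105, FDR = 0.00272). An exact two-sided permutation test of its log2 CPM over libraries did not pass (p = 0.114). Without untreated library 1 the log2 fold change was -0.25, and without TGFβ1 library 4 it was -0.41. The exons of Atf5 share 82 bases with genes on the opposite strand, which hold 0.553% of its stretches of read length. The other 8 genes shared no such stretch with another gene. Nupr1 (ENSMUSG00000030717, chr7:126623249-126630861) encodes a small stress-induced chromatin protein. It had 52.2, 55.1, 52.8 and 42.7 CPM untreated and 36.2, 39.7, 33.5 and 35.4 CPM after TGFβ1. The highest treated library stayed just below the lowest untreated one, and Nupr1 fell by 0.49 on the log2 scale (standard error 0.0793, FDR = 1.80e-09).

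The largest falls were those of Trib3, Chac1 and Asns, which each had a CARE match in the promoter. Nupr1, with the exact form, fell less (log2 fold change -0.49) than Atf4 (-0.97) and Ddit3 (-0.78), which had no match. Whether the element bears on the size of a fall was not tested. Trib3 (ENSMUSG00000032715, chr2:152337422-152344032) encodes a pseudokinase that inhibits AKT and restrains ATF4 and CHOP. It had 197, 182, 171 and 145 CPM untreated and 45.8, 48.5, 49.2 and 52.6 CPM after TGFβ1. It fell by 1.83 on the log2 scale (standard error 0.0823, FDR = 1.22e-107), or 3.54-fold, and 1.97% of all genes tested lay at or below this change. Chac1 (ENSMUSG00000027313, chr2:119351229-119354381) encodes an enzyme that degrades glutathione. It had 80.8, 72.9, 78.5 and 68.2 CPM untreated and 19.1, 22.5, 21.7 and 25.6 CPM after TGFβ1. It fell by 1.75 on the log2 scale (standard error 0.0813, FDR = 2.21e-101), or 3.36-fold. In both genes the gap between the groups was wider than the whole range within either group.

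Asns (ENSMUSG00000029752, chr6:7675169-7693254), which encodes asparagine synthetase, was the steadiest of the 10 genes between libraries. It had 362, 365, 372 and 361 CPM untreated and 148, 149, 149 and 146 CPM after TGFβ1. Asns fell by 1.30 on the log2 scale (standard error 0.0369, FDR = 5.51e-271), or 2.47-fold. Its coefficient of variation was 1.33% in untreated and 0.952% in treated libraries.

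Ddit4 and Sesn2 were the 2 genes called higher. Ddit4 (ENSMUSG00000020108, chr10:59949669-59951834) encodes REDD1, which restrains the growth kinase complex mTORC1. It had 61.4, 52.0, 49.7 and 48.3 CPM untreated and 90.9, 90.0, 107.4 and 110.9 CPM after TGFβ1. Each treated library lay above each untreated one, and Ddit4 rose by 0.92 on the log2 scale (standard error 0.0854, FDR = 3.23e-26), or 1.89-fold. Sesn2 (ENSMUSG00000028893, chr4:132492032-132510501), which encodes a leucine sensor that also restrains mTORC1, had 178, 164, 162 and 149 CPM untreated and 174, 177, 181 and 182 CPM after TGFβ1. Untreated library 1 lay above 2 of the treated libraries. The log2 fold change was 0.13 (standard error 0.0515, FDR = 0.0160), and Sesn2 no longer passed without untreated library 4 (log2 fold change 0.09, FDR = 0.0723) or with total counts as the scale of each library (log2 fold change 0.06, FDR = 0.250). Over all alternatives its FDR was between 0.000642 and 0.250. The exact permutation test of its log2 CPM over libraries did not pass either (p = 0.0857).

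Gdf15 (ENSMUSG00000038508, chr8:70629393-70632456) encodes a secreted stress hormone of the TGFβ superfamily and was the least abundant of the 10 genes. It had 25.2, 14.2, 11.4 and 9.74 CPM untreated and 8.93, 7.74, 15.3 and 17.8 CPM after TGFβ1. The groups overlapped widely, and the level differed 2.59-fold among the untreated and 2.30-fold among the treated libraries. The log2 fold change was -0.28 with a standard error of 0.290 (FDR = 0.370). Without untreated library 1 it was 0.07 (FDR = 0.798), so the direction rested on that library, and without TGFβ1 library 4 it was -0.51 (FDR = 0.100).

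**Figure D2:**
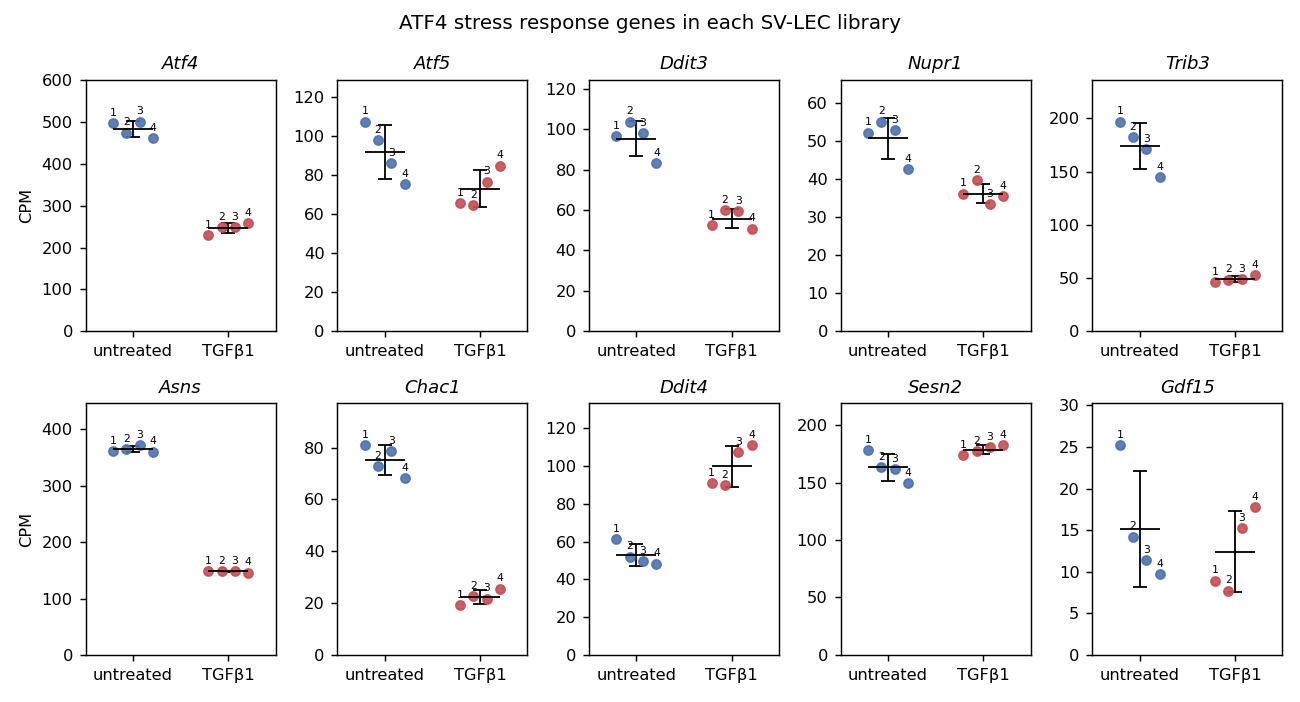
Level of each of the 10 genes in CPM (vertical axis, from 0, with its own scale in each panel) in 4 untreated (blue) and 4 TGFβ1-treated (red) libraries, numbered by replicate. Horizontal lines are means and bars are SDs. In Trib3, Chac1 and Asns the groups lie far apart, whereas in Sesn2, Atf5 and Gdf15 they overlap.

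Untreated library 4 had the lowest level of its group in 10 of the 10 genes, and untreated library 1 had the highest in 6. Among treated libraries, library 4 was the highest in 7 of the 10 genes. The same order over all genes tested was not counted, so it cannot be called particular to these genes. The median coefficient of variation of the 10 genes was 9.99% in untreated and 7.80% in treated libraries. For the 9504 genes with at least 10 CPM in untreated and 5 CPM in treated cells, the medians were 4.57% and 4.27%. Gdf15 varied most, at 45.9% and 39.1%. When untreated library 4 and TGFβ1 library 4 were both left out, a setting chosen after seeing the data, 8 of the 10 genes were lower and 1 was higher. Gdf15 then passed (log2 fold change -0.67, FDR = 0.0182), and Sesn2 did not (log2 fold change 0.08, FDR = 0.142). These libraries held the lowest untreated and the highest treated level of Gdf15. Leaving them out moves most of the changes downward by the choice itself, so the setting gives no support to a fall.

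Levels were also divided by exonic length, which merges the exons of all annotated transcripts of a gene. It can exceed the length of the transcript expressed, so the order of the genes is approximate. Untreated levels were highest for Atf4, with 205 ± 7.80 CPM per kilobase, followed by Asns with 133 ± 1.78 and Trib3 with 81.8 ± 10.3 (SD, n = 4). Ddit3 followed with 55.6 ± 5.10. Sesn2 (47.0 ± 3.41), Atf5 (46.0 ± 7.01) and Chac1 (45.9 ± 3.47) did not differ beyond their spread, and Ddit4 (30.1 ± 3.35), Nupr1 (20.2 ± 2.18) and Gdf15 (8.18 ± 3.75) were lower. After TGFβ1 the order changed below Atf4, which had 104.4 ± 5.01 CPM per kilobase. Ddit4 (56.9 ± 6.22), Asns (54.1 ± 0.515) and Sesn2 (51.4 ± 1.09) then stood next to each other within the spread of Ddit4. Trib3 (23.1 ± 1.32) came after Atf5 (36.6 ± 4.79) and Ddit3 (32.5 ± 2.76), and Chac1 (13.6 ± 1.63) lay beside Nupr1 (14.4 ± 1.03).

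To compare the genes independently of library scaling, the counts of each were set against the counts of Atf4 in the same library. Trib3, Chac1 and Asns fell relative to Atf4. Trib3 had between 31.4 and 39.6 counts per 100 Atf4 counts in untreated libraries and between 19.5 and 20.4 after TGFβ1, a difference of -0.84 on the log2 scale. Chac1 went from between 14.8 and 16.3 to between 8.31 and 9.93, a difference of -0.78, and Asns from between 72.9 and 78.0 to between 56.6 and 64.6, a difference of -0.33. Ddit3 stayed close to Atf4, with between 18.0 and 21.9 counts per 100 Atf4 counts untreated and between 19.7 and 24.0 after TGFβ1. This difference of 0.20 did not pass (exact two-sided permutation test, p = 0.0571, adjusted p = 0.0643). Gdf15 did not pass either (difference 0.70, exact permutation test, p = 0.114, adjusted p = 0.114).

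The remaining genes rose relative to Atf4. Ddit4 went from between 9.93 and 12.4 to between 36.1 and 43.3 counts per 100 Atf4 counts, a difference of 1.89, and Sesn2 from between 32.3 and 35.9 to between 70.8 and 75.8, a difference of 1.11. Atf5 and Nupr1, which fell in CPM, also rose against Atf4, by 0.65 and 0.49. Atf4 itself fell by 0.97, while the median over all genes tested was -0.0064. A gene that does not change in CPM therefore also rises against Atf4, and by more than Atf5 and Nupr1 did. How many of all genes rise or do not overlap in this ratio was not counted. For the 7 genes whose ratios did not overlap between groups, the exact two-sided permutation p was 0.0286, the smallest that 4 libraries against 4 allow. With Benjamini-Hochberg adjustment over the 9 ratios it was 0.0367.

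**Figure D3:**
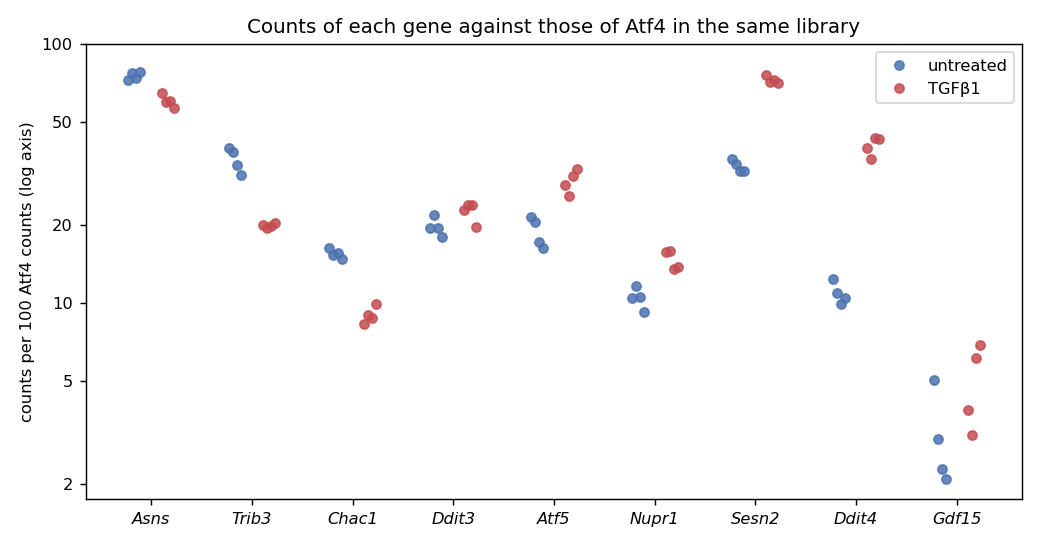
Counts of 9 genes per 100 counts of Atf4 in the same library (log axis), in 4 untreated (blue) and 4 TGFβ1-treated (red) libraries. Asns, Trib3 and Chac1 lie lower after TGFβ1, Atf5, Nupr1, Sesn2 and Ddit4 lie higher, and Ddit3 and Gdf15 overlap.

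Upstream of ATF4, the genes of 14 kinases, regulators and subunits moved in both directions, with 5 higher, 5 lower and a median log2 fold change of 0.03. Among all genes tested, 37.6% were higher and 38% lower, which is near these counts. The same background applies to the lists below. Eif2ak3, which encodes PERK, the kinase that senses ER stress, rose from 39.1 ± 1.98 to 77.2 ± 5.03 CPM (log2 fold change 0.98, SD, n = 4). Eif2ak2, encoding the RNA-sensing kinase PKR, rose from 85.2 ± 8.66 to 164.5 ± 8.85 CPM (log2 fold change 0.95), and Eif2ak1, encoding the heme-regulated kinase, rose by 0.31 on the log2 scale. In contrast, Eif2ak4, which encodes the amino acid sensor GCN2, fell by 0.33, whereas its activator Gcn1 rose by 0.50. Dele1, which relays mitochondrial stress to the heme-regulated kinase, fell by 0.69. Both phosphatase subunits that reverse the phosphorylation of eIF2 fell, Ppp1r15a by 0.35 and Ppp1r15b by 0.29. Eif2s1, the phosphorylated subunit itself, had a log2 fold change of 0.0034 (FDR = 0.950). Phosphorylation of eIF2 and the level of the ATF4 protein were not measured here.

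Of 12 bZIP factors, a list of ATF4 partners and related stress factors, 11 were tested. None was higher and 8 were lower, with a median log2 fold change of -0.36. The lower genes numbered 7 with the quasi-likelihood test, DESeq2 or an FDR of 0.01, and 9 with total counts as the scale. Cebpg, the C/EBP factor that pairs with ATF4 on CARE sites, fell from 138 ± 8.89 to 81.9 ± 1.88 CPM (log2 fold change -0.76, SD, n = 4). Creb1 fell by 0.66 and Atf3 by 0.40 on the log2 scale. Cebpb (log2 fold change -0.77, standard error 0.228, FDR = 0.00120) and Cebpd (log2 fold change -0.61, standard error 0.271, FDR = 0.0343) passed with wide spreads between libraries.

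Genes listed as paralogs of the group were mixed. Of 9 such genes, 5 were higher and 2 lower, with a median log2 fold change of 0.17. The list also holds Atf6 and Atf7, which are more distant bZIP relatives. Trib2 rose from 9.81 ± 0.419 to 30.1 ± 2.37 CPM (log2 fold change 1.61, SD, n = 4), whereas Trib1 fell by 0.57 and Trib3, described above, by 1.83. Atf6, which encodes a sensor of ER stress, fell by 0.51 (standard error 0.0460, FDR = 1.29e-27), and Atf7 rose by 0.17. Nupr1l, at no more than 21 counts in a library, rose by 1.26, whereas Nupr1 fell by 0.49. Ddit4l rose by 0.99, close to the rise of Ddit4. Sesn3 rose by 0.50, and Sesn1 had a log2 fold change of 0.11 (FDR = 0.140). Chac2, which degrades glutathione as Chac1 does, had a log2 fold change of -0.21 (FDR = 0.0591). Differences between paralogs were not tested.

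Genes of amino acid metabolism described as ATF4 targets were mostly lower. Of 12 enzymes of serine, glycine, one-carbon, proline and cysteine synthesis, 11 were lower and 1 was higher, with a median log2 fold change of -1.09. Psat1, an enzyme of serine synthesis, fell from 664 ± 24.7 to 210 ± 7.52 CPM (log2 fold change -1.66, SD, n = 4), and Gpt2, which makes alanine, fell by 1.38. Cbs, an enzyme of the transsulfuration pathway with 1.71 ± 0.342 CPM in untreated cells, was the exception and rose by 2.62. Of 11 amino acid transporters, 10 were lower and none was higher, with a median of -0.64. Slc7a3, a carrier of cationic amino acids, fell by 1.55, and Slc7a11, which imports cystine for glutathione synthesis, fell from 52.0 ± 3.24 to 21.9 ± 1.64 CPM (log2 fold change -1.25, SD, n = 4).

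The cytosolic tRNA synthetases, which charge tRNAs with amino acids, changed less. Of 20 genes, 14 were lower and 2 were higher, with a median of -0.31. Vars fell by 1.02, Yars by 0.89 and Sars by 0.80 on the log2 scale, whereas Farsa rose by 0.19 and Gars by 0.10.

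Of 14 genes outside the group described as targets of ATF4 or CHOP, 12 were lower and 2 were higher, with a median of -0.65. The lower genes included Cebpb and Atf3, already counted among the bZIP factors, and Ppp1r15a, already counted upstream of ATF4. Vegfa, also lower, belongs to the list of HIF targets as well. Fgf21, a hormone secreted under metabolic stress, fell most, from 36.0 ± 4.74 to 3.72 ± 0.499 CPM (log2 fold change -3.28, standard error 0.120, SD, n = 4), or 9.70-fold. Adm2, encoding a peptide hormone, fell by 1.71, and Vldlr, a lipoprotein receptor, fell from 119 ± 3.91 to 39.7 ± 2.35 CPM (log2 fold change -1.59, SD, n = 4). Tnfrsf10b, a death receptor that is also a p53 target, rose from 77.4 ± 2.65 to 193 ± 7.41 CPM (log2 fold change 1.32, SD, n = 4), and the autophagy receptor gene Sqstm1 rose by 0.39.

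Genes of the other arms of the ER stress response were mostly higher. Of 20 genes activated by ATF6 or XBP1, 19 were tested, and 17 were higher and 1 lower, with a median log2 fold change of 0.39. The lower gene was Sel1l, with -0.14. The RNA of Atf6 itself was lower, as given above. Calr, an ER chaperone, rose from 603 ± 32.7 to 1701 ± 24.1 CPM (SD, n = 4), Dnajb11 rose by 0.99 and Canx by 0.78. Hspa5, which encodes the chaperone BiP and was picked after its values were seen, rose from 781 ± 48.1 to 1268 ± 10.8 CPM (log2 fold change 0.70, SD, n = 4). The ER stress element bound by ATF6, CCAAT and CCACG spaced by 9 bases on either strand, was present in 9 of the 18 genes of this list with a promoter, in none of the 10 ATF4 stress response genes and in 0.137% of all genes in the table. CARE was in none of the 18, and in 2.74% of tested genes.

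Targets of p53 were mostly higher. Of 15 genes, 12 were higher and none was lower, with a median log2 fold change of 0.97. Mdm2, which encodes the ubiquitin ligase of p53, rose 4.67-fold (log2 fold change 2.22, standard error 0.0648), and Btg2 and Ccng1 rose by 1.42 and 1.35. None of the 10 ATF4 stress response genes was part of this list, and their relation to p53 was not tested.

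**Figure D4:**
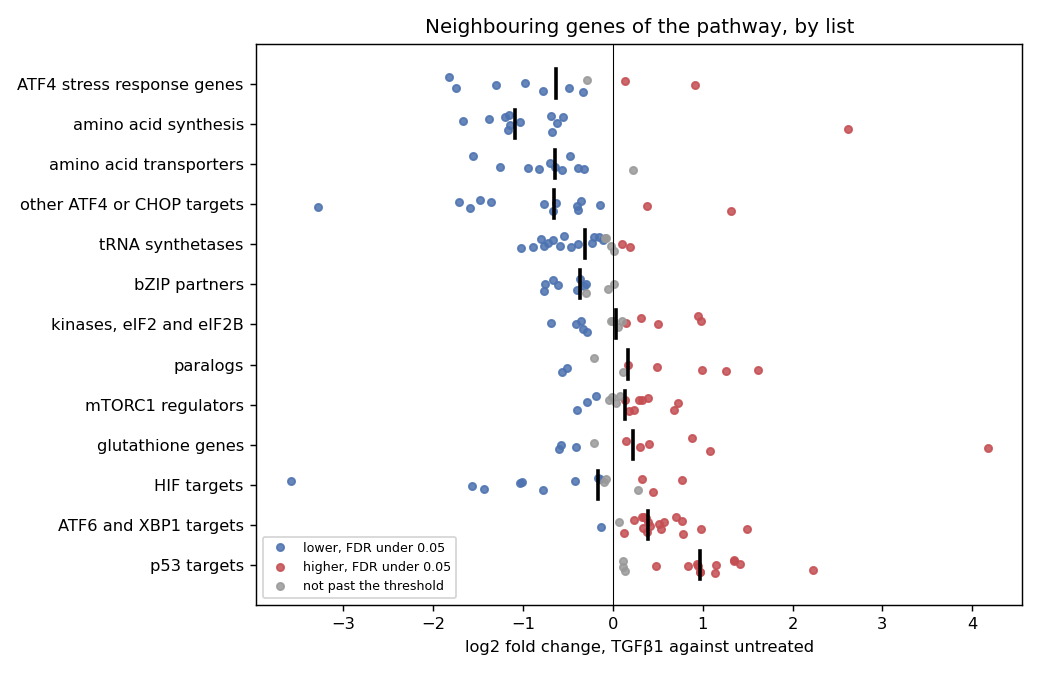
Log2 fold change of each tested gene (points, coloured by FDR) in the ATF4 stress response group and in 12 other lists, with the median of each list as a black bar. The lists for amino acid synthesis, transporters and other ATF4 or CHOP targets lie mostly left of 0, and those for ATF6 and XBP1 targets and p53 targets lie mostly right of 0.

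Outside the 10 genes, CARE matches occurred in the promoters of other lists of this pathway. They were present in 5 of 13 tRNA synthetases, 4 of 12 other targets, 2 of 11 enzymes, 2 of 7 transporters and 2 of 10 bZIP factors with a promoter in the table. Atf3 is counted both among the other targets and among the bZIP factors. No match was found in the lists of paralogs, p53 targets, HIF targets, mTORC1 regulators or glutathione genes. These lists had only 7 to 14 genes with a promoter each, and 2.74% of tested genes held a match. Their lack of a match therefore does not set them apart from genes in general. The windows of Fgf21 (chr7:45615611-45615640, reverse strand), Vldlr (chr19:27216809-27216838, forward strand) and Slc7a11 (chr3:50443661-50443690, reverse strand) are shown on the strand of the gene because these genes fell by more than 1 on the log2 scale, beside that of Tars (chr15:11399655-11399684, reverse strand), which did not pass (log2 fold change -0.09, FDR = 0.0874) and was picked after its values were seen. Capitals mark the match.
Fgf21: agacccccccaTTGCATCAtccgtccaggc
Vldlr: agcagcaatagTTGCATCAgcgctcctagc
Slc7a11: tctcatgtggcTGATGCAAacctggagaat
Tars: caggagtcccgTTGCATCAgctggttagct
All 4 windows held the exact form, and Slc7a11 held it in a second place, 47 bases before the start site. Gars, whose window is not shown, held a match that differed in the letter marked N, and was called higher (log2 fold change 0.10, FDR = 0.0199).

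Over all tested genes with a promoter in the table, 279 held CARE in any form, and of these 44.8% were lower and 35.1% higher, against 39.0% and 38.3% of the 9854 genes without it. With the exact form, 53.9% of 76 genes were lower and 26.3% higher, with a median log2 fold change of -0.28. Of the 15 of them that belong to a list named here, 14 were lower and 0 higher. Among the other 61 genes, 44.3% were lower and 32.8% higher, with a median of -0.16. The median was thus nearer to 0 outside the listed genes.

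**Figure D5:**
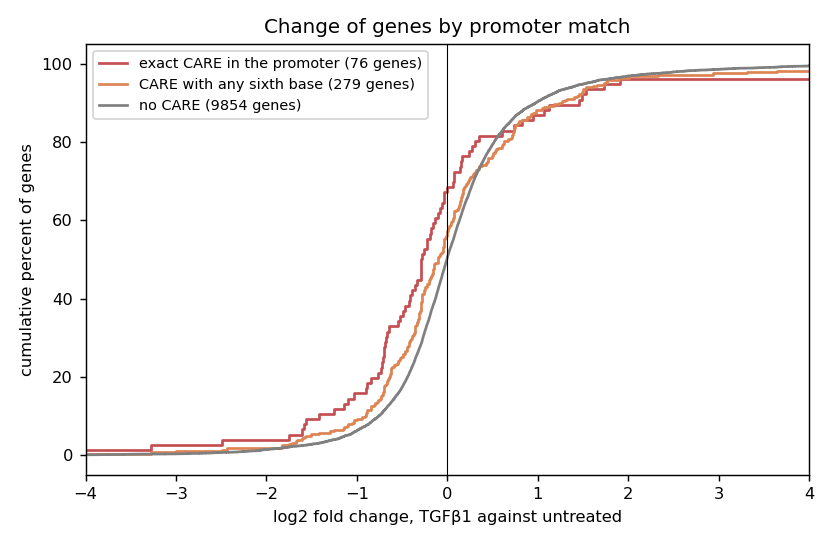
Cumulative percent of genes (vertical axis) by log2 fold change (horizontal axis, shown from -4 to 4) for 76 genes with the exact CARE in the promoter, 279 genes with CARE in any form and 9854 genes without it. The curve of the 76 genes lies left of the others below 0, with a median of -0.28 against -0.0054 for genes without CARE.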

How the data were processed

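The authors prepared stranded poly(A) libraries and aligned single-end reads of 75 bases to GRCm38. The submitters' processing notes name bcl2fastq 2.20.0.422, STAR 2.7.3a and featureCounts 1.5.1. The deposited values are raw counts of reads per gene. The annotation release and the use of strand in counting are not given in the sources used here. Libraries were grouped by their labels.

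The tests were run with edgeR 4.0.16 under R 4.3.3, following the test named in the study's methods. Genes were filtered with filterByExpr, libraries were scaled by TMM, and groups were compared with glmFit and glmLRT at a Benjamini-Hochberg FDR of 0.05 over 13818 genes. Fold changes carry a prior count of 0.125. The standard error is the unshrunken log2 fold change divided by the square root of the likelihood ratio statistic. In each sentence, a value after "rose by" or "fell by" is a log2 fold change unless said otherwise. Ratios to Atf4 used a pseudocount of 1. Median log2 fold changes of lists are descriptions without a test. The quasi-likelihood test, DESeq2 1.42.0, other scalings, filters, thresholds and prior counts, a replicate block and each library left out were alternatives. On simulated data with 13596 genes, the likelihood ratio test called 75 of 98 genes changed by 0.5 and 93 of 97 changed by 1 on the log2 scale, and 21 unchanged genes. Few genes were changed there, evenly up and down, whereas 75.6% of the genes tested here passed. The rates of the simulation may therefore not hold for these data. A floor of 3 counts was between 0.113 and 0.162 CPM, which covers counting error only. Within groups, chi-square per degree of freedom was between 2.37 and 7.84 over genes with at least 20 counts in a pair, so no library was a copy of another. Same-numbered libraries of the groups did not deviate together. The deviations of differently numbered libraries correlated between -0.356 (untreated 1 with TGFβ1 2) and 0.410 (untreated 1 with TGFβ1 4), so some variation was shared between the groups.

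All 10 genes were named, with genes of the upstream, bZIP and paralog lists, the largest changes of each other list, and any marker. The genes and lists were chosen with earlier results of these data known. Gene positions came from GENCODE M21 and promoters from RefSeq on GRCm38.p6, matched by Entrez identifier.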

Additional observations from a re-analysis of the deposited data

How the results depend on the processing

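Under each alternative, Atf4, Ddit3, Trib3, Chac1, Asns, Nupr1, Atf5 and Ddit4 kept their direction and their call. Of the 10 genes, 7 were lower, or 8 with both number 4 libraries left out, a choice that itself moves most changes downward. Atf5 passed in all of these fits, but not in the exact permutation test over libraries given above. The number of higher genes was 1 in place of 2 with total counts as the scale, without the filter on low counts, at an FDR of 0.01, and without both number 4 libraries, an alternative chosen after seeing the data. In each case the lost gene was Sesn2. Leaving out single libraries gave 1 to 2 higher genes. Gdf15 had log2 fold changes between -0.51 and 0.0706 with single libraries left out, the latter without untreated library 1.

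Of the lists, the tRNA synthetases had 1 higher gene in place of 2 under total counts, without the filter, at an FDR of 0.01 and with the replicate block, and 1 to 2 with single libraries left out. The transporters had 0 to 1 higher genes with single libraries left out. Endothelial markers had 5 higher and 2 lower genes without the filter, and the other-cell markers 3 higher genes when 1 CPM was required in 4 or more libraries. These filters change which genes are tested. The labels give both groups the numbers 1 to 4, but same-numbered libraries correlated between -0.310 and -0.0397 in their deviations, so the replicate block rests on a number alone. With it, 5075 genes were higher and 5077 lower, and the calls of the 10 genes stayed as they were. Total counts as the scale moved the median of all genes by less than 0.1 on the log2 scale. The differences against Atf4 kept their direction in each alternative. Gdf15, at 159 to 523 counts per library, is limited by the spread between libraries.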

Other observations

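Other genes around the 10 were divided, as were all genes tested, of which 37.6% were higher and 38% lower. Of 15 HIF target genes, which respond to lack of oxygen, 9 were lower and 3 higher, with a median log2 fold change of -0.17. Car9, a carbonic anhydrase, fell from 6.08 ± 1.31 to 0.499 ± 0.113 CPM (log2 fold change -3.58, SD, n = 4). Ndrg1 fell by 1.57 and Egln3 fell by 1.44, and Adm, the most increased, rose by 0.77. Ddit4, which is also known to respond to lack of oxygen, rose, as did the 3 higher genes of this list, whereas the 9 lower genes fell. The relation of Ddit4 to lack of oxygen was not tested.

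Of 15 regulators of mTORC1, the complex restrained by the products of Ddit4 and Sesn2, 8 were higher and 3 lower, with a median of 0.13. Castor1, an arginine sensor, rose by 0.73 and Tsc2, which restrains mTORC1, by 0.68, whereas Nprl2 fell by 0.40. Of 10 tested genes of glutathione metabolism, 6 were higher and 3 lower. Gss, which completes the synthesis of glutathione, rose from 30.2 ± 1.81 to 64.1 ± 3.09 CPM (log2 fold change 1.08, SD, n = 4), whereas Chac1, whose product degrades it, fell. The 3 lower genes of the list were Oplah, Gclm and Gpx4, with log2 fold changes of -0.59, -0.58 and -0.41. The list thus had no common direction. Ggt5, which cleaves glutathione outside the cell, was at 0.207 ± 0.0947 CPM in untreated and 3.73 ± 0.691 CPM in treated libraries (SD, n = 4).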
